A study of Mus musculus with 11 samples.

Results

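The EGFR, RAS and ERK pathway was followed in mouse liver through 29 genes, chosen by symbol from the 24063 genes of the deposited tables. The list holds 3 receptors of the EGF receptor family, 5 adaptors and exchange factors, 3 small GTPases, 8 kinases with a scaffold, 2 GTPase-activating proteins and 8 feedback inhibitors. All 29 symbols were found. RNA was sequenced from whole livers of 6 mice given A2M and 5 mice given PBS, the vehicle. All 11 were Cd1 nu/nu mice, which carry the athymic nude mutation and lack T cells made in a thymus. Per the study's methods they were males, 8 weeks old when human tumour cells were placed under the skin, and A2M was the activated form of human alpha-2-macroglobulin, injected repeatedly into the peritoneum. Alpha-2-macroglobulin is a large plasma protease inhibitor that hepatocytes take up through the receptor LRP1. The study describes the livers as those of tumour mice. The labels do not say which tumour line a mouse carried or at what time of day the livers were taken. The comparison asks whether liver transcripts of a growth factor pathway differ between A2M and PBS livers.

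As background, ligands of the EGF family bind receptors of the ERBB family at the cell surface. The receptor pairs phosphorylate each other, adaptors such as GRB2 and SHC1 bind them, and the exchange factors SOS1 and SOS2 load RAS with GTP. RAS then recruits RAF kinases, which activate MEK kinases and through them ERK, and ERK induces its own inhibitors, among them dual-specificity phosphatases and Sprouty proteins. EGFR is abundant in hepatocytes and takes part in liver regeneration. Much of the pathway is controlled by phosphorylation, which RNA levels do not measure.

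Promoters of the pathway genes are shown first for 3 members whose windows hold a sequence motif in a clear position. The windows are the 120 bases just before the RefSeq transcription start on GRCm38.p6, the build of the read mapping (mm10). The capitals mark only the motif named for each gene, and GC boxes in the Nras and Braf windows are left in lower case. For Egfr, at chr11:16752083-16752202 on the plus strand, the capitals are a GC box (GGGCGG, read on the opposite strand), the kind of site Sp1 binds. The Nras window, chr3:103058165-103058284 on the plus strand, holds an E-box (CACGTG), the kind of site that CLOCK and BMAL1 or MYC family proteins bind. The Braf window, chr6:39725464-39725583 on the minus strand, holds 2 cAMP response elements (TGACGTCA).
Egfr: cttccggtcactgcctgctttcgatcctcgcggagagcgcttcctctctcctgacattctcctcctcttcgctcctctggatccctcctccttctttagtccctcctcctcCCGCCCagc
Nras: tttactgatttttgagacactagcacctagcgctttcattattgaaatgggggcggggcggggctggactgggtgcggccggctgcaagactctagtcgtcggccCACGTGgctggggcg
Braf: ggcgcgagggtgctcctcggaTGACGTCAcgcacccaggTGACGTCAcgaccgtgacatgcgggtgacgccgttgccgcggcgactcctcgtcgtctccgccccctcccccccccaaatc

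A RefSeq promoter, which covers the start of transcription and the bases before it, was matched for 24 of the 29 members. GC boxes stood in 17 of these 24 promoters (70.8%), against 67.3% of the 9478 promoters of genes tested here and 38.2% of all 27025 promoters. A TATA box (TATAAA) was found in the Grb2 promoter alone (4.17%), against 9.40% of tested genes, and the E-box in the Nras promoter alone (4.17%), against 11.8%. The ETS motif CCGGAAGT, read by factors that ERK phosphorylates, stood in the promoters of Shc1 and Nf1 (8.33%, against 9% of tested genes), and the AP-1 motif TGACTCA in those of Shc1 and Ksr1 (8.33%, against 4.66%). The cAMP response element was found in Braf alone (4.17%, against 3.46%), and the D-box TTATGTAA in no member (0.749% of tested genes). Motifs were searched on both strands, and a GC box within a longer GC-rich run counts once per gene. The median GC content of the members' promoters was 63.9% (range 51.8 to 82.7%), against 60.7% for tested genes. These matches describe letters in a window and not sites in use.

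The libraries held 23545121 to 37357134 counted reads in A2M livers and 31513210 to 46381692 in PBS livers. Hepatocyte markers dominated every library: 6 markers, among them albumin, summed to 50354 to 60603 RPKM (reads scaled to exon length and library total) in A2M livers and 41687 to 67355 RPKM in PBS livers. One library stood apart. PBS replicate 2 carried transcripts of fat and adrenal cortex, with 332.7 RPKM over 5 adipocyte markers, against 0 to 0.14 RPKM in A2M livers and 0.06 to 6.14 RPKM in the other PBS livers. It also held 272.5 RPKM over 5 adrenal markers, against 1.61 to 11.6 RPKM in A2M livers and 2.25 to 6.02 RPKM in the other PBS livers. In A2M replicate 1 the Kupffer cell markers summed to 141.0 RPKM, against 31.4 to 76.6 RPKM in the other A2M livers and 25.1 to 67.2 RPKM in PBS livers. Clock genes that peak near dusk summed to 142.1 to 166.1 RPKM in A2M livers and 32.2 to 97.0 RPKM in PBS livers. Those that peak near dawn summed to 9.03 to 16.0 RPKM in A2M livers and 23.8 to 52.8 RPKM in PBS livers. The groups did not overlap on either sum, although several single genes in them did. Cholangiocyte markers summed to 16.8 to 27.2 RPKM in A2M livers and 13.2 to 152.3 RPKM in PBS livers, with the highest sum in PBS replicate 1. Spp1 alone gave 149.3 RPKM of that highest sum. In the same library Sox9 was high (1.92 RPKM) and Krt19 low (0.421 RPKM), so the sum is no measure of cholangiocyte number. The part of these differences in the results that follow was not tested. A value given without a library cannot test it, because it leaves out everything in that liver.

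None of the 27 pathway genes that were abundant enough to test passed the test between A2M and PBS livers. Of these, 12 had a higher and 15 a lower fitted level in A2M livers, against 6149 higher and 6432 lower of all genes, with a median log2 fold change of -0.01, close to that over all 12581 genes tested (-0.01). Fold changes ran from -0.58 for Spry2 to 0.49 for Erbb3 on the log2 scale. By edgeR's quasi-likelihood test, 0 of 27 fell under 0.01 after adjustment, against 0.215% of all genes, and 0 fell under 0.05, against 1.22%. The members' adjusted p ran from 0.207 to 0.999. The authors also used 0.01, but asked it of both edgeR and DESeq. At an unadjusted p under 0.05, 2 members passed, Spred1 and Gab1, against 14.7% of all genes. DESeq2 called 0 members at 0.01 as well, with a smallest adjusted p of 0.118, against 286 of all 12581 genes (2.27%), a larger share than by edgeR. Requiring both edgeR's exact test and DESeq2 at 0.01, nearer to the authors' rule, gave 0 members, against 83 higher and 102 lower of all genes. The quasi-likelihood test was thus the stricter one. In none of the 27 did the 6 A2M livers lie wholly on one side of the 5 PBS livers, against 2.59% of all genes. Dusp4 and Dusp5 were below the filter on low counts and were not tested.

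A missed threshold does not show that the groups were alike, so the intervals are given too. The 95% interval of the fold change lay within 1.5-fold in either direction for 18 of the 27 members (66.7%), against 57.4% of all genes tested, and within 2-fold for 25 (92.6%), against 81.4%. The 2 members with a wider interval were Erbb3 and Spry2. The labels give no litters, cages or batches, so the p-values measure the spread between these samples. In bulk liver, fewer cells of a type and less RNA per cell cannot be told apart.

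**Figure D1:**
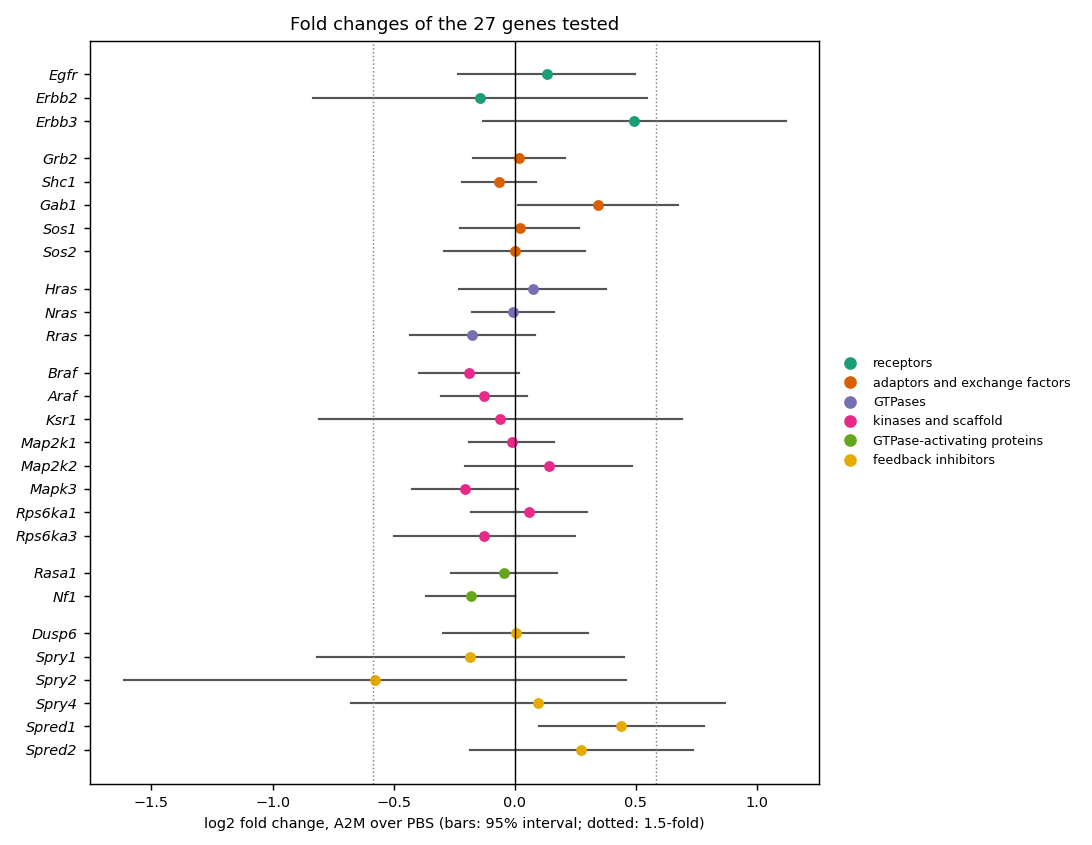
The log2 fold change (x axis, A2M over PBS) of each of the 27 tested genes (y axis) is a point coloured by role, and its bar is the 95% interval of edgeR's quasi-likelihood fit; dotted lines mark 1.5-fold. The bars of Spred1 and Gab1 alone leave out 0, both on the positive side, and the longest bars belong to Spry2, Spry4, Ksr1 and Erbb2.

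Among the receptors, Egfr, the receptor of EGF and TGF-alpha, was the most abundant gene of the pathway list, and none of the 3 differed between the groups by the test. Egfr stood at 59.5 RPKM in the lowest, 85.4 at the median and 120.5 in the highest A2M liver, against 66.9, 93.8, 68.1, 68.6 and 107.2 RPKM in PBS replicates 1 to 5. The groups overlapped over most of their range, and the mean was 87.6 ± 19.9 RPKM in A2M livers (SD, n = 6) and 80.9 ± 18.5 RPKM in PBS livers (SD, n = 5). Egfr had a log2 fold change of 0.13 (SE 0.169, adjusted p = 0.785, edgeR), with a 95% interval of 0.8501- to 1.41-fold. Between 9676 and 28975 reads per A2M library and 13813 and 24877 per PBS library stood behind these values, so counting error was small beside the spread between mice.

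Erbb3, a receptor with weak kinase activity that binds neuregulins and signals in pairs with other family members, had the largest positive fold change of the list. It measured 6.69 RPKM in the lowest, 15.4 at the median and 22.4 in the highest A2M liver, against 9.97, 9.71, 10.8, 6.48 and 17.5 RPKM in PBS replicates 1 to 5. A2M replicates 3 and 6 exceeded every PBS liver, while A2M replicate 1 lay below all but PBS replicate 4. Erbb3 differed by 0.49 on the log2 scale (SE 0.289, adjusted p = 0.471, edgeR), and the interval ran from 0.913- to 2.17-fold. Leaving out A2M replicate 1 brought Erbb3 to 0.65 (adjusted p = 0.209, edgeR).

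Erbb2, the family member with no known ligand of its own, was close to the detection limit, with 10 to 30 reads per A2M library and 13 to 43 per PBS library. Its level was 0.0792 RPKM in the lowest, 0.102 at the median and 0.188 in the highest A2M liver, against 0.121, 0.221, 0.0825, 0.0776 and 0.139 RPKM in PBS replicates 1 to 5. The highest value came from PBS replicate 2, the library with fat and adrenal transcripts. Erbb2 had a log2 fold change of -0.14 (SE 0.320, adjusted p = 0.889, edgeR) with all libraries and 0.09 without PBS replicate 2. Per length, Egfr exceeded Erbb3 in each liver, by 3.58 to 13.1 times in A2M livers and 6.13 to 10.6 times in PBS livers. Egfr exceeded Erbb2 by 464 to 1406 times in A2M livers and 424 to 883 times in PBS livers.

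**Figure D2:**
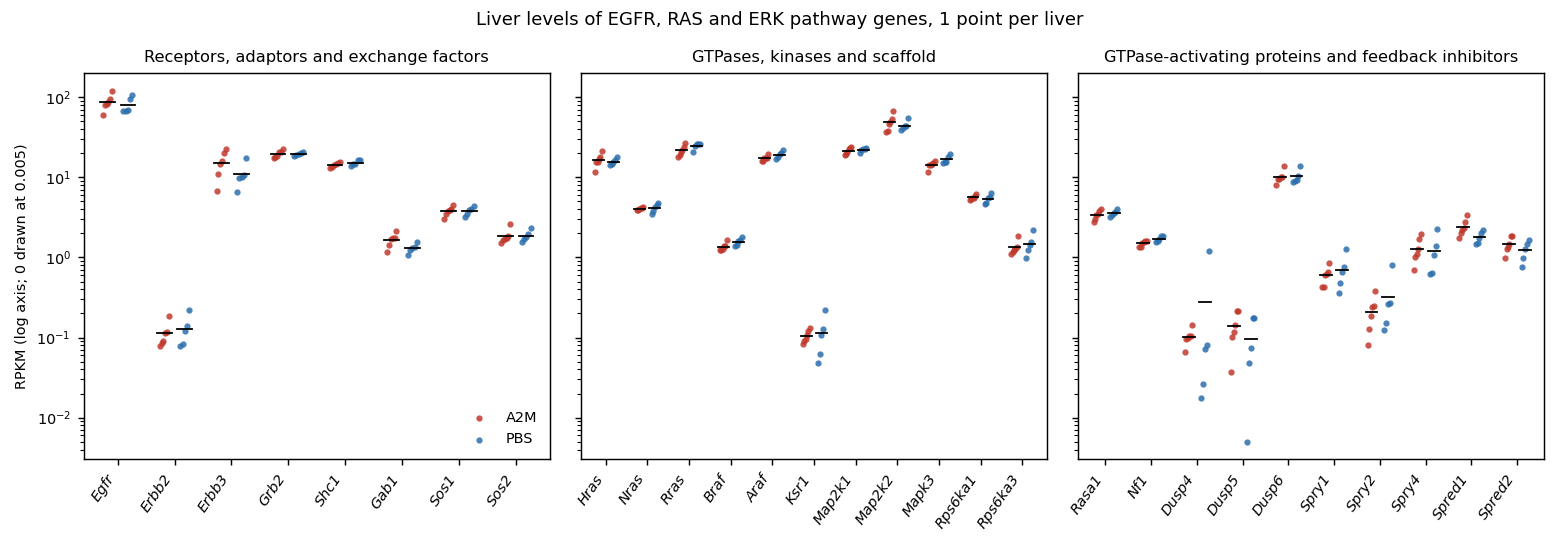
RPKM on a log axis (y) for the 29 genes (x), grouped by role in 3 panels, with 1 point per liver (A2M left, red; PBS right, blue) and a black line at the group mean; the single value of 0, Dusp5 in PBS replicate 3, is drawn at 0.005. Points of the groups overlap for every gene, Egfr lies highest, and for Dusp4 and Spry2 a single PBS liver lies far above the rest.

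The adaptors and exchange factors gave 3 positive and 2 negative fold changes (median log2 value 0.02). Grb2, the adaptor that links receptors to SOS, was the most abundant of them and varied little: 17.2 RPKM in the lowest, 19.6 at the median and 22.7 in the highest A2M liver, against 20.3, 19.1, 19.5, 18.6 and 20.5 RPKM in PBS replicates 1 to 5. The PBS values all fell inside the A2M range. The difference was 0.02 on the log2 scale (SE 0.0877, adjusted p = 0.959, edgeR), and its 95% interval ran from 0.887- to 1.15-fold. Shc1, the other adaptor that binds phosphorylated receptors, ranged from 13.1 to 15.7 RPKM in A2M livers and from 13.8 to 16.4 RPKM in PBS livers, with a log2 fold change of -0.07.

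Gab1, a docking protein that recruits the phosphatase SHP2 and PI3-kinase to activated receptors, had the smallest p of this group. It measured 1.16 RPKM in the lowest, 1.71 at the median and 2.12 in the highest A2M liver, against 1.33, 1.36, 1.56, 1.09 and 1.22 RPKM in PBS replicates 1 to 5. Of the 6 A2M livers, 4 exceeded every PBS liver, and A2M replicate 1 lay below 4 of the 5 PBS livers. Gab1 averaged 1.65 ± 0.324 RPKM in A2M livers (SD, n = 6) and 1.31 ± 0.176 RPKM in PBS livers (SD, n = 5), for a log2 fold change of 0.34 (SE 0.153, adjusted p = 0.323, edgeR). The unadjusted p of 0.0430 lies at the edge of that looser threshold, and leaving out single libraries moved the adjusted p between 0.141 and 0.545. About 5.23% of the exon bases of Gab1 are shared with an antisense transcript, whose reads cannot be told apart in this unstranded library.

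Sos1 and Sos2, which exchange GDP for GTP on RAS, had fold changes near 0, with 95% intervals of 0.856- to 1.201-fold for Sos1 and 0.817- to 1.22-fold for Sos2. Sos1 averaged 3.80 ± 0.53 RPKM in A2M livers (SD, n = 6) and 3.79 ± 0.457 RPKM in PBS livers (SD, n = 5). Sos2 averaged 1.85 ± 0.394 RPKM in A2M livers and 1.88 ± 0.301 RPKM in PBS livers, and A2M replicate 3 was its highest library at 2.63 RPKM. Sos1 exceeded Sos2 in every liver, by 1.74 to 2.30 times in A2M livers and 1.72 to 2.78 times in PBS livers.

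Of the small GTPases, Hras and Nras encode classical RAS proteins, and Rras a related protein known for its effect on integrins and vessels. None of the 3 passed the test, and the interval of each lay within 1.5-fold. Rras, the most abundant, measured 17.8 RPKM in the lowest, 21.3 at the median and 26.7 in the highest A2M liver, against 26.1, 26.3, 26.0, 24.7 and 20.8 RPKM in PBS replicates 1 to 5. All PBS livers but replicate 5 lay close together and above all A2M livers but replicate 1, while replicate 5 fell among the lower A2M livers. Its log2 fold change was -0.18 (SE 0.119, adjusted p = 0.548, edgeR).

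Hras ranged most among A2M livers, at 11.6 RPKM in the lowest, 16.3 at the median and 21.1 in the highest, against 14.1, 15.8, 17.8, 16.4 and 14.7 RPKM in PBS replicates 1 to 5. A2M replicate 1 was the highest and A2M replicate 6 the lowest of all 11 livers. Hras differed by 0.07 on the log2 scale (SE 0.141, adjusted p = 0.863, edgeR), and -0.01 without A2M replicate 1. Nras showed the reverse spread, at 3.89 RPKM in the lowest, 4.09 at the median and 4.22 in the highest A2M liver, against 4.46, 4.75, 4.24, 3.47 and 3.76 RPKM in PBS replicates 1 to 5. All A2M values of Nras fell inside the PBS range, and its log2 fold change was -0.01 (SE 0.0791, adjusted p = 0.980, edgeR). Per length, Hras stood 2.83 to 5.17 times above Nras in A2M livers and 3.17 to 4.73 times in PBS livers.

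The kinases and the scaffold gave 6 negative and 2 positive fold changes (median log2 value -0.09), and none passed the test. The RAF kinases Araf and Braf carry the signal from RAS to MEK. Araf measured 16.0 RPKM in the lowest, 17.5 at the median and 19.7 in the highest A2M liver, against 21.7, 19.9, 17.0, 19.3 and 18.1 RPKM in PBS replicates 1 to 5. By RPKM, PBS replicates 1 and 2 alone exceeded every A2M liver, while on TMM-scaled counts PBS replicates 1 and 4 did. Braf measured 1.23 RPKM in the lowest, 1.32 at the median and 1.67 in the highest A2M liver, against 1.62, 1.798, 1.40, 1.41 and 1.64 RPKM in PBS replicates 1 to 5. A2M replicate 3 held the 1.67 RPKM, and without it the A2M livers lay below all PBS livers on the scaled counts.

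The log2 fold change of Araf was -0.13 (SE 0.0823, adjusted p = 0.527, edgeR) and that of Braf -0.19 (SE 0.0951, adjusted p = 0.388, edgeR). Without A2M replicate 3 Braf had an adjusted p of 0.261 by edgeR. Araf exceeded Braf per length in each liver, by 10.6 to 15.9 times in A2M livers and 11.1 to 13.7 times in PBS livers.

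Map2k1 and Map2k2 encode the MEK kinases that phosphorylate ERK. Map2k1 was among the steadiest members, at 19.2 RPKM in the lowest, 21.6 at the median and 24.0 in the highest A2M liver, against 21.8, 22.8, 22.4, 20.02 and 23.1 RPKM in PBS replicates 1 to 5. Its PBS values lay inside the A2M range, the log2 fold change was -0.01 (SE 0.0806, adjusted p = 0.966, edgeR) and the interval 0.878- to 1.12-fold. Map2k2, the most abundant kinase of the list, measured 37.3 RPKM in the lowest, 47.5 at the median and 67.3 in the highest A2M liver, against 41.4, 43.3, 54.5, 43.6 and 38.8 RPKM in PBS replicates 1 to 5. As with Hras, A2M replicate 1 was the highest and A2M replicate 6 the lowest library. Map2k2 differed by 0.14 on the log2 scale (SE 0.160, adjusted p = 0.751, edgeR). The ratio of Map2k2 to Map2k1 ran from 1.64 to 3.50 in A2M livers and from 1.68 to 2.43 in PBS livers.

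Mapk3, which encodes ERK1, had the smallest p among the kinases. It measured 11.7 RPKM in the lowest, 14.6 at the median and 16.1 in the highest A2M liver, against 15.7, 19.7, 18.2, 15.2 and 15.4 RPKM in PBS replicates 1 to 5. A2M replicates 2 and 6 were the A2M livers that reached the PBS range. Mapk3 averaged 14.4 ± 1.51 RPKM in A2M livers (SD, n = 6) and 16.8 ± 2.003 RPKM in PBS livers (SD, n = 5), a log2 fold change of -0.21 (SE 0.101, adjusted p = 0.376, edgeR) with an interval of 0.745- to 1.009-fold. Without PBS replicate 2, its highest library by RPKM, the log2 fold change was -0.18 (adjusted p = 0.551, edgeR).

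The other kinase genes had small fold changes. Rps6ka1, which encodes the ERK-activated kinase RSK1, averaged 5.62 ± 0.379 RPKM in A2M livers (SD, n = 6) and 5.44 ± 0.681 RPKM in PBS livers (SD, n = 5). About 5.8% of the exon bases of Rps6ka1 lie opposite an antisense transcript, as with Gab1. Rps6ka3, which encodes RSK2, averaged 1.33 ± 0.261 RPKM in A2M livers and 1.49 ± 0.464 RPKM in PBS livers. The scaffold Ksr1, which holds RAF, MEK and ERK together, had the lowest mean of the list, from 0.0833 to 0.131 RPKM in A2M livers and from 0.0475 to 0.220 RPKM in PBS livers, on 8 to 17 reads per A2M library and 8 to 35 per PBS library. A2M replicate 4 was the highest A2M liver for Rps6ka3, and PBS replicate 2 was the highest of all libraries for both Rps6ka3 and Ksr1.

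The GTPase-activating proteins return RAS to its inactive form, and both of those listed had negative fold changes that did not pass the test. Nf1, which encodes neurofibromin, measured 1.34 RPKM in the lowest, 1.53 at the median and 1.62 in the highest A2M liver, against 1.62, 1.86, 1.69, 1.58 and 1.83 RPKM in PBS replicates 1 to 5. The overlap was narrow: without PBS replicate 1 the groups no longer overlapped on the scaled counts, with an adjusted p of 0.352 by edgeR. With all libraries the log2 fold change of Nf1 was -0.18 (SE 0.0850, adjusted p = 0.347, edgeR) and the interval 0.776- to 1.00-fold. Rasa1, which encodes p120 RasGAP, measured 2.75 RPKM in the lowest, 3.47 at the median and 4.004 in the highest A2M liver, against 3.65, 4.02, 3.22, 3.34 and 3.57 RPKM in PBS replicates 1 to 5. Both ranges of Rasa1 overlapped almost fully, and its log2 fold change was -0.04 (SE 0.101, adjusted p = 0.898, edgeR). Rasa1 exceeded Nf1 in every liver, by 1.92 to 2.53 times in A2M livers and 1.91 to 2.25 times in PBS livers.

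The feedback inhibitors, which ERK signalling induces in many tissues, gave 4 positive and 2 negative fold changes among the 6 tested (median log2 value 0.05). Dusp6, a phosphatase specific to ERK in the cytoplasm and a common transcript readout of ERK activity, was the most abundant. Its level was 8.11 RPKM in the lowest, 9.79 at the median and 13.9 in the highest A2M liver, against 13.9, 9.02, 8.71, 9.31 and 10.5 RPKM in PBS replicates 1 to 5. One liver of each group, A2M replicate 3 and PBS replicate 1, stood above the others at nearly the same level. Dusp6 differed by 0.003 on the log2 scale (SE 0.139, adjusted p = 0.995, edgeR), and the interval ran from 0.813- to 1.23-fold.

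Spred1, a membrane protein that brings neurofibromin to RAS, had the smallest p of all 27 members tested. It measured 1.74 RPKM in the lowest, 2.27 at the median and 3.36 in the highest A2M liver, against 2.01, 2.22, 1.77, 1.53 and 1.49 RPKM in PBS replicates 1 to 5. A2M replicates 1, 2 and 3 exceeded every PBS liver, and A2M replicate 4 lay below 3 of them. Spred1 averaged 2.40 ± 0.573 RPKM in A2M livers (SD, n = 6) and 1.803 ± 0.312 RPKM in PBS livers (SD, n = 5), for a log2 fold change of 0.44 (SE 0.158, unadjusted p = 0.0155, adjusted p = 0.207, edgeR). The highest value came from A2M replicate 1, the library with the highest sum of Kupffer cell markers, and without it the log2 fold change was 0.32 (adjusted p = 0.262, edgeR). Its relative Spred2 averaged 1.46 ± 0.341 RPKM in A2M livers and 1.23 ± 0.366 RPKM in PBS livers, with a log2 fold change of 0.27 (SE 0.213, adjusted p = 0.607, edgeR).

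The Sprouty genes, whose products block signalling between receptor and RAF, were low and variable. Spry4 measured 0.696 RPKM in the lowest, 1.1996 at the median and 1.96 in the highest A2M liver, against 0.617, 1.09, 0.636, 2.25 and 1.40 RPKM in PBS replicates 1 to 5. Both the highest and the lowest liver for Spry4 were PBS livers, and its log2 fold change was 0.10 (SE 0.358, adjusted p = 0.938, edgeR). Spry2 measured 0.0814 RPKM in the lowest, 0.214 at the median and 0.376 in the highest A2M liver, against 0.125, 0.812, 0.152, 0.269 and 0.266 RPKM in PBS replicates 1 to 5. PBS replicate 2 alone lay above all A2M livers. Spry2 had a log2 fold change of -0.58 (SE 0.480, adjusted p = 0.636, edgeR) with all libraries and 0.02 without PBS replicate 2. Spry1 ranged from 0.423 to 0.857 RPKM in A2M livers and from 0.355 to 1.26 RPKM in PBS livers, again highest in PBS replicate 2. About 24.4% of the exon bases of Spry1 lie opposite an unclassified transcript, so part of its count is uncertain.

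Dusp4 and Dusp5, phosphatases that inactivate ERK in the nucleus, were barely detected. Dusp4 measured 0.0653 RPKM in the lowest, 0.101 at the median and 0.145 in the highest A2M liver, on 4 to 10 reads per library, against 0.0714, 1.21, 0.0261, 0.0178 and 0.07999 RPKM in PBS replicates 1 to 5. In PBS replicate 2 the value rested on 114 reads, and the other PBS livers lay in or below the A2M range. Dusp5 ranged from 0.0368 to 0.217 RPKM in A2M livers and from 0 to 0.178 RPKM in PBS livers, on no more than 8 reads in any library, and 22.1% of its exon bases lie opposite an antisense transcript. No difference in Dusp5 was detectable at this depth.

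Set side by side by RPKM, a few libraries held most of the highest and lowest values. PBS replicate 2 was the highest of the 11 livers for 12 of the 29 genes: Erbb2, Shc1, Nras, Braf, Ksr1, Mapk3, Rps6ka3, Rasa1, Nf1, Dusp4, Spry1 and Spry2. PBS replicate 4 was the lowest for 8 genes, among them Erbb2, Erbb3, Gab1, Nras and Spred2, and it had the most reads of the 11. A2M replicates 1 and 3 were each highest for 5 genes: Hras, Rras, Map2k2, Dusp5 and Spred1 in replicate 1, and Egfr, Sos1, Sos2, Dusp6 and Spred2 in replicate 3. On TMM-scaled counts other livers were higher than PBS replicate 2 for Shc1, Nras, Mapk3, Rasa1 and Nf1. On those counts PBS replicate 4 was not the lowest for Erbb2, Erbb3 and Gab1. Rras, Sos1 and Spred2 also had other highest livers there. PBS replicate 2 had the largest TMM scaling factor (1.097) and PBS replicate 4 the smallest (0.929). PBS replicate 2 also had the highest sum of stellate cell and fibroblast markers (64.9 RPKM, against 25.3 to 42.7 RPKM in A2M livers). The part of fat, adrenal and stromal transcripts in its member values was not tested, since leaving it out removes the whole library. The coefficient of variation over the 11 livers was lowest for Map2k1 (7.46%), Shc1 (7.47%), Grb2 (8.05%) and Nras (8.32%), and highest for Dusp4 (186%) and Spry2 (76.7%).

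**Figure D3:**
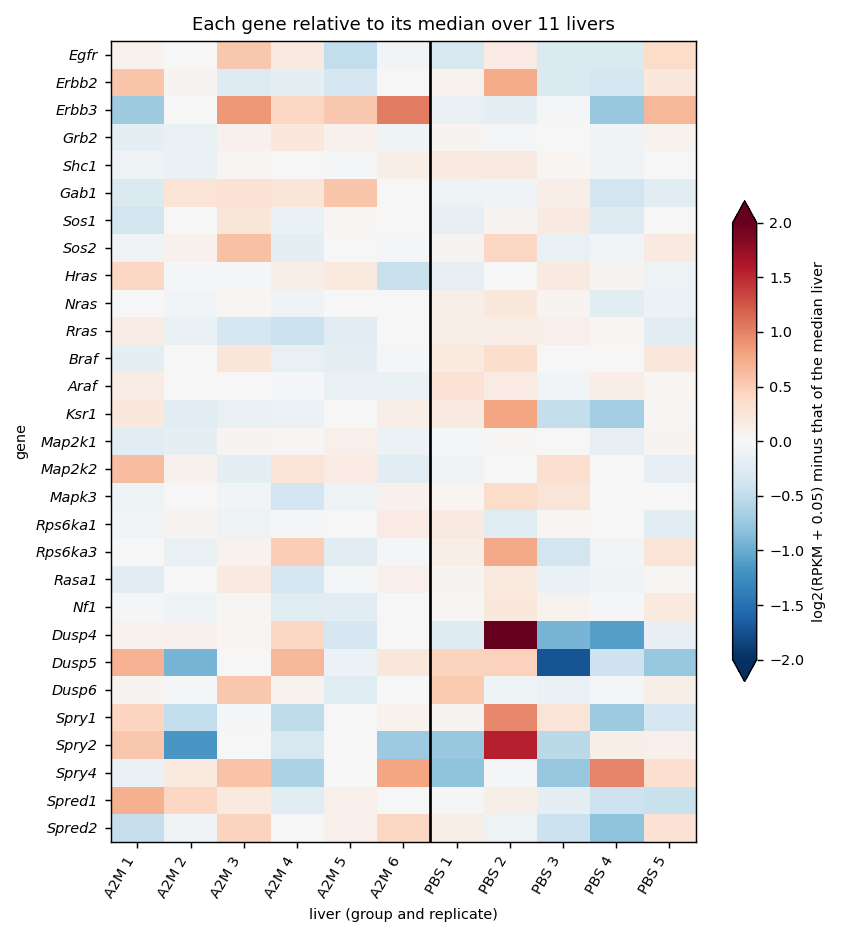
Colour gives log2(RPKM + 0.05) of each gene (rows) in each liver (columns, A2M left of the black line, PBS right) minus that of the gene's median liver, cut off at 2 in either direction. No row splits by group, and the darkest cells are the high values of Dusp4 and Spry2 in PBS replicate 2 and the low value of Dusp5 in PBS replicate 3.

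Beyond the members, 66 other genes of the pathway were followed in 5 lists. Of these 49 were tested, and 0 passed at 0.01 or at 0.05 by edgeR's quasi-likelihood test, with 7 at an unadjusted p under 0.05 (14.3%, near the 14.7% of all genes), 23 positive and 26 negative fold changes and a median log2 value of -0.03. Among the ligands, 5 of 11 were tested, with 2 positive and 3 negative. Nrg4, a neuregulin that binds ERBB4 and is known from brown fat, had the largest fold change: 1.48 RPKM in the lowest, 5.01 at the median and 12.4 in the highest A2M liver, against 1.62, 2.52, 0.593, 2.14 and 1.08 RPKM in PBS replicates 1 to 5. Of the 6 A2M livers, 5 exceeded every PBS liver, and A2M replicate 6 lay within the PBS range. The log2 fold change of Nrg4 was 1.99 (SE 0.521, adjusted p = 0.0887, edgeR), which did not pass the threshold.

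The other ligands were nearer between the groups. Egf averaged 0.0847 ± 0.0245 RPKM in A2M livers (SD, n = 6) and 0.140 ± 0.0562 RPKM in PBS livers (SD, n = 5), for a log2 fold change of -0.68 (adjusted p = 0.319, edgeR). Btc, which encodes betacellulin, differed by -0.42 on the log2 scale (adjusted p = 0.618, edgeR). Tgfa, chosen after its values were seen because it was the most abundant EGFR ligand here, averaged 3.90 ± 0.565 RPKM in A2M livers and 4.03 ± 0.71 RPKM in PBS livers. Erbb4, the receptor of Nrg4, was below the filter.

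Receptor-proximal regulators gave 7 positive and 5 negative fold changes among 12 tested of 13. Lrig2, a membrane protein of the LRIG family, averaged 0.702 ± 0.121 RPKM in A2M livers (SD, n = 6) and 0.923 ± 0.201 RPKM in PBS livers (SD, n = 5), for a log2 fold change of -0.37 (adjusted p = 0.282, edgeR). Cblb, a ubiquitin ligase, differed by -0.36 on the log2 scale (adjusted p = 0.452, edgeR), and Ptpn11, which encodes SHP2, one of 0.19 (adjusted p = 0.461, edgeR). Errfi1, which encodes the EGFR inhibitor MIG6 and was chosen after its values were seen, exceeded Egfr per length in every liver, by 2.39 to 4.30 times in A2M livers and 3.18 to 5.13 times in PBS livers. Errfi1 averaged 272.3 ± 34.2 RPKM in A2M livers and 314.6 ± 53.3 RPKM in PBS livers (log2 fold change -0.18, adjusted p = 0.509, edgeR).

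The other cascade genes gave 4 positive and 11 negative fold changes among 15 tested of 17. Mknk2 encodes an ERK-activated kinase that phosphorylates the translation factor eIF4E. Of the 49 further genes tested over all lists, it was the 1 whose groups did not overlap, against 2.59% of all genes tested. It measured 36.8 RPKM in the lowest, 42.8 at the median and 47.1 in the highest A2M liver, against 14.4, 34.5, 24.3, 30.5 and 34.8 RPKM in PBS replicates 1 to 5. All 6 A2M livers lay above all 5 PBS livers, with a log2 fold change of 0.63 (SE 0.192, adjusted p = 0.131, edgeR) that did not pass. Rasgrp2, an exchange factor for RAP1, differed by -0.42 on the log2 scale (adjusted p = 0.362, edgeR). The sums of dusk and dawn clock genes given above also separated the groups, although several single genes in them overlapped. The part of clock genes in Mknk2 was not tested.

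Other inhibitors gave 2 positive and 6 negative fold changes among 8 tested of 13. Dusp7, a cytoplasmic ERK phosphatase, averaged 1.63 ± 0.149 RPKM in A2M livers (SD, n = 6) and 1.34 ± 0.200 RPKM in PBS livers (SD, n = 5), for a log2 fold change of 0.31 (adjusted p = 0.275, edgeR). Dusp1, an immediate early phosphatase of stress kinases and ERK, had a log2 fold change of -1.13 (SE 0.487, adjusted p = 0.306, edgeR), with 35.1 RPKM in PBS replicate 1 and 4.02 to 15.9 RPKM in the other PBS livers, against 3.22 to 13.0 RPKM in A2M livers. Rasa3, a GTPase-activating protein, differed by 0.33 on the log2 scale (adjusted p = 0.444, edgeR).

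Transcripts known to respond to ERK gave 8 positive and 1 negative fold change among 9 tested of 12 (median log2 value 0.56), against 6149 positive and 6432 negative of all genes, and none passed. Phlda1 measured 14.9 RPKM in the lowest, 16.8 at the median and 51.8 in the highest A2M liver, against 27.4, 10.9, 8.14, 14.9 and 8.99 RPKM in PBS replicates 1 to 5. Its log2 fold change was 0.82 (SE 0.390, adjusted p = 0.357, edgeR), with PBS replicate 1 above 4 of the 6 A2M livers. Etv5, an ETS factor, differed by 0.39 on the log2 scale (adjusted p = 0.415, edgeR) and the immediate early gene Ier3 one of 0.61 (adjusted p = 0.516, edgeR). Egr1, an immediate early transcription factor chosen after its values were seen, stood at 70.5 RPKM in A2M replicate 6, against 0.322 to 3.06 RPKM in the other A2M livers and 0.878 to 8.11 RPKM in PBS livers. Its fold change was positive (log2 value 1.65), although the other 5 A2M livers all lay below the PBS median of 3.44 RPKM. A single liver thus stood far above the rest for Egr1. A2M replicate 6 was also the highest liver for Fos (3.26 RPKM, next 1.29) and Ier2 (26.3 RPKM, next 25.4). A2M replicate 5 was the highest for both Phlda1 and Myc, and the other genes tested had other highest livers. The 9 signs therefore do not count as independent. For Phlda1 the highest liver, A2M replicate 5, was followed by A2M replicate 2 at 30.3 RPKM and then by PBS replicate 1.

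**Figure D4:**
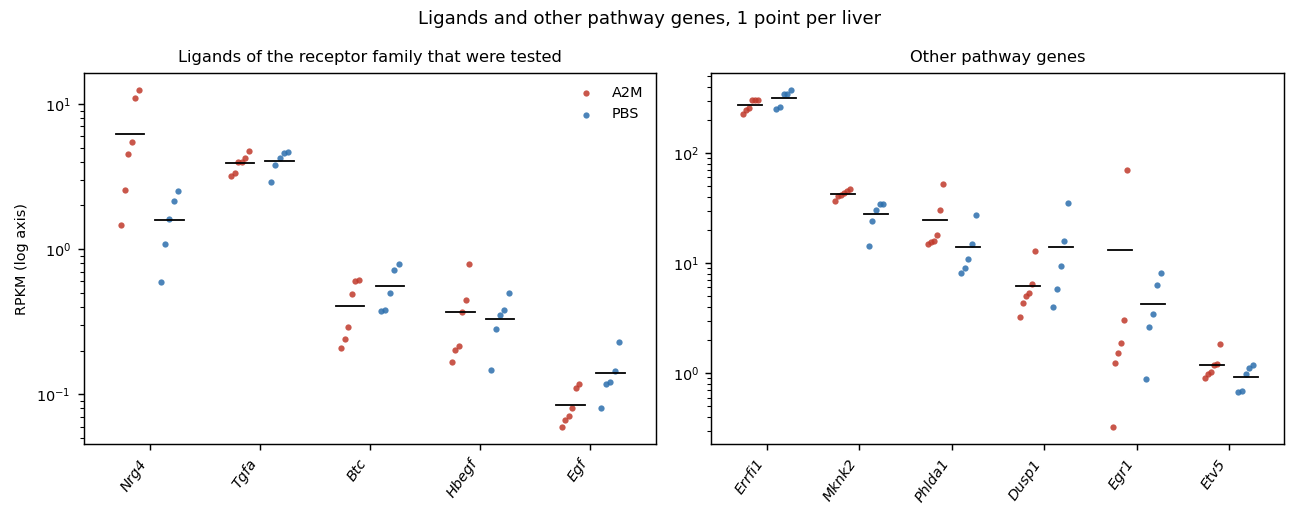
RPKM on log axes (y) of the 5 tested ligands (left panel) and of 6 other pathway genes (right panel), with 1 point per liver (A2M left, red; PBS right, blue) and a black line at the group mean. The groups are separate for Mknk2, touch at 1 A2M liver for Nrg4, and overlap for the rest; the single high point of Egr1 is A2M replicate 6 at 70.5 RPKM.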

How the data were processed

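Libraries from total RNA of 11 livers were unstranded (TruSeq RNA v2). Per the study's methods and the submitters' notes, bcl2fastq 1.8.4 produced single reads, TopHat2 mapped them to mm10, and featureCounts assigned them to genes of RefSeq. The authors deposited read counts that were not normalized, RPM values that equal the counts scaled to a common total, and RPKM values that they made from exon lengths. Levels given are the deposited RPKM.

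Counts were tested with edgeR 4.0.16 in R 4.3.3 (TMM, filterByExpr by group, quasi-likelihood F-test, Benjamini-Hochberg adjustment over 12581 genes, threshold 0.01). Each log2 fold change is of A2M over PBS, with its SE, and intervals are at the 95% level. DESeq2 1.42.0, edgeR's exact test joined with DESeq2, other normalizations, no filter, robust dispersion and leaving out libraries were the alternatives. The code was tested on simulated data. No 2 libraries agreed within sampling noise (smallest chi-square per degree of freedom 37.1). Depth is given with the results, and read numbers cover counting error only. Groups come from the treatment label, and replicate numbers are names in order of deposit that pair no samples.

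The members and lists were chosen with earlier results of these data known. Values per library are given for members with an adjusted p under 0.05 or groups that do not overlap, for the member of each role with the smallest p, the largest fold change or the highest RPKM, and for 14 core genes; of each further list, up to 3 genes with the smallest p are named. Some genes that this rule picks are not reported here. Groups were called separate on TMM-scaled counts. Gene positions and exon overlaps came from GENCODE M21 and promoters from RefSeq, both on GRCm38.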

Additional observations from a re-analysis of the deposited data

Results flagged for a closer look

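Of 58 groups of values (29 genes, A2M and PBS livers), 7 held a library whose gap to its nearest neighbour was large for the range of its group by Dixon's ratio; chance alone gives about 1 in 20. In A2M livers these were Erbb2 in replicate 1 (0.188 RPKM, next 0.119), Sos2 in replicate 3 (2.63 RPKM, next 1.85), Dusp6 in replicate 3 (13.9 RPKM, next 10.03) and Rps6ka3 in replicate 4 (1.83 RPKM, next 1.36). In PBS livers they were Dusp4 in replicate 2 (1.21 RPKM, next 0.07999), Spry2 in replicate 2 (0.812 RPKM, next 0.269) and Rras in replicate 5, which lay low (20.8 RPKM, next 24.7). PBS replicate 2 is the library with fat and adrenal transcripts, and the part of those transcripts in its high values of Dusp4 and Spry2 was not tested.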

How the results depend on the processing

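The number of members that passed was 0 at 0.01 and 0 at 0.05 under each of the 18 alternative fits. The number of members whose groups did not overlap was 0 with TMM, RLE size factors, library totals, and without both PBS replicate 2 and A2M replicate 1, and ranged from 0 to 1 when single libraries were left out (Nf1, Braf or Spred1). The sign of the log2 fold change held in every alternative for 11 of 27 members (Araf, Braf, Egfr, Erbb3, Gab1, Mapk3, Nf1, Rras, Shc1, Spred1 and Spred2) and turned in at least 1 for the other 16, most of them near 0. The cause was not tested. Sos2 turned to 0.0045 with RLE size factors, 0.0051 with DESeq2 and 0.086 without both libraries. Dusp6 turned to -0.013 with library totals, -0.0016 without a filter and -0.058 without both libraries. Without both libraries Hras was at -0.039, Nras 0.012, Ksr1 0.22, Map2k1 0.00066, Map2k2 -0.012, Rps6ka3 0.033 and Rasa1 0.0078. With single libraries left out, log2 fold changes ranged from -0.36 to 0.094 for Erbb2, -0.030 to 0.052 for Grb2, -0.027 to 0.096 for Sos1, -0.11 to 0.050 for Sos2, -0.0097 to 0.16 for Hras, -0.039 to 0.020 for Nras, -0.25 to 0.28 for Ksr1, -0.052 to 0.018 for Map2k1, -0.021 to 0.10 for Rps6ka1, -0.24 to 0.017 for Rps6ka3, -0.081 to 0.012 for Rasa1, -0.093 to 0.11 for Dusp6, -0.34 to 0.089 for Spry1, -0.83 to 0.016 for Spry2 and -0.080 to 0.51 for Spry4. Over all genes the calls at 0.01 numbered 10 higher and 17 lower with edgeR and 135 higher and 151 lower with DESeq2. Without A2M replicate 6 edgeR called 15 higher and 20 lower. Leaving out any other single library gave fewer calls than all libraries did. No paired analysis was possible because the labels give the livers no shared numbers. Depth limits Erbb2, Ksr1, Dusp4 and Dusp5, which rest on few reads.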
